A study of Mus musculus with 2 samples.

Results

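TEC is the GENCODE class for loci that still await experimental proof. They were drawn from cDNA or EST evidence of uncertain status, mostly as a single exon. The loci described here are genes whose every transcript carries that class and which held at least 300 expected counts in both libraries. The rule chose 117 loci out of 3213 TEC genes and 55536 genes in the tables. The count threshold thus took 3.64% of the TEC genes, and it took 7.11% of all genes. Since the loci were chosen by their expected counts, their levels are given as a description with no test.

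The libraries are total RNA, depleted of ribosomal RNA, from the nucleoplasm of bone marrow-derived C57BL/6J mouse macrophages that were exposed to lipid A at 100 ng/ml during 50 minutes. Lipid A, the part of bacterial lipopolysaccharide that sits in the outer membrane, is sensed through TLR4. There was 1 group of 2 libraries, replicate 2 made from 1000 ng of RNA and replicate 1 from 500 ng, and the source label names the nucleus where the description names its nucleoplasm. The labels call them separate biological replicates with the same strain donor and record neither sex nor age. With 1 group and no untreated cells among the libraries used here, there was no contrast to test, and no level below is a response to lipid A.

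A nuclear RNA preparation holds RNA that is still being made or spliced. Introns are transcribed before they are removed, so reads can fall anywhere in the body of an active gene, and RNA polymerase can also run past the end of a gene before it is released. A gene model drawn inside an intron, or just past a gene, collects such reads together with any from a transcript of its own. In tables of counts per annotated gene unspliced or readthrough RNA of the coding gene and a transcript of the locus cannot be told apart, for any locus named here.

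The annotated ends are where a separate polyadenylated transcript would stop, and the last 60 bases are shown for the loci on which the results below turn. Sequences are the GENCODE M21 transcript sequences on mm10, 5′ to 3′ along the locus's own strand. Capitals mark AATAAA or ATTAAA, the canonical poly(A) signal and its commonest variant. The first set holds the highest locus, Gm38357 in Noct, and the locus with the most counts, Gm37084 in Mapkapk2, neither with a signal in the last 60 bases (chr3:51234321-51234380, plus strand, and chr1:131086252-131086311, minus strand).
Gm38357: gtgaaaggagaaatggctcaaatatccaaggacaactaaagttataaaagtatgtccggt
Gm37084: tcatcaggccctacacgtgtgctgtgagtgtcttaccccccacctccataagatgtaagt

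A further pair is shown because it is 1 sequence at 2 places. Gm20236 ends at chr14:69277601-69277660 and Gm37094 at chr14:69495851-69495910, both on the minus strand, and the 2 loci have the same 4540 bases throughout, with 0 differences.
Gm20236: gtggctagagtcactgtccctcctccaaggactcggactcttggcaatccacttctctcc
Gm37094: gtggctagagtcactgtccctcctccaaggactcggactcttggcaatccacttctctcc

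The next set ends in a poly(A) signal. It holds loci on the strand of their coding gene (Gm36638 in Pik3r1, chr13:101749720-101749779, minus, and Gm45222 in Picalm, chr7:90150195-90150254, plus) and on the opposite strand (AC167363.2 in Cdkn1a, chr17:29093416-29093475, minus, and 2210406H18Rik in Mettl9, chr7:121062852-121062911, minus). It also holds Gm37560, beside Bcl2a1d (chr9:88732938-88732997, plus), and Gm43197, which lay near no coding gene (chr6:3336772-3336831, minus).
Gm36638: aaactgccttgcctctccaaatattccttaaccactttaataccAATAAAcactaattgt
Gm45222: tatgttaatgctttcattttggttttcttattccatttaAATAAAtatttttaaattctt
AC167363.2: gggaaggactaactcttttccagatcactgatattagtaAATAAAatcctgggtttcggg
2210406H18Rik: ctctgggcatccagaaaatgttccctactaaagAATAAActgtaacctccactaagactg
Gm37560: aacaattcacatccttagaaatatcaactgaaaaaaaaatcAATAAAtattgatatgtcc
Gm43197: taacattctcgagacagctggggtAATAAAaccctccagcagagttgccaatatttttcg

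A signal in the last 50 bases was found at 25 of the 117 loci (21.4%), AATAAA at 20 and ATTAAA at 5. Among the other TEC genes 895 of 3096 (28.9%) had one, and the share over all TEC genes was 28.6%. In the first 50 bases, searched in the same way on the locus's strand, the shares were 5.98% for the chosen loci and 6.01% for the other TEC genes. Loci inside a coding gene on its own strand had a signal in 13 of 93 cases (14.0%), against 285 of 1443 other TEC genes so placed (19.8%). Loci inside a coding gene on the opposite strand had one in 7 of 14 cases (50.0%), against 146 of 379 (38.5%). A match is a string of letters and was not tested as a site of cleavage.

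Replicate 2 was the deeper library, with 20515408 expected counts over all rows, and replicate 1 had 10395300. Each of the 10 macrophage markers reached 1 TPM in both, and they summed to 3558 TPM in replicate 2 and 4128 TPM in replicate 1. Of 29 markers of T, NK and B cells, neutrophils, erythroid, dendritic and mast cells, stroma and endothelium, 3 reached that level in both and 9 were listed with 0 counts in both. These 29 summed to 11.3 TPM in replicate 2 and 14.2 TPM in replicate 1. In bulk RNA fewer cells of a type and less RNA per cell cannot be told apart.

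The 117 loci held 200175 of 20495545 expected counts of gene rows in replicate 2, or 0.977% (95% Wilson interval 0.972 to 0.981). In replicate 1 they held 138795 of 10342882, or 1.34% (1.33 to 1.35). The intervals describe counting error alone and leave out the difference between libraries. No molecular identifiers mark reads copied from 1 molecule, so even the counting error may be larger than they give. These loci carried 70.4% of all counts on TEC genes in replicate 2 and 68.7% in replicate 1, and 1523 of the 3213 TEC genes (47.4%) had 0 counts in both. The median chosen locus had an expected count of 1034 in replicate 2 and 720 in replicate 1. The 10 with most counts held 37.4% of the loci's counts in replicate 2 and 33.7% in replicate 1.

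TPM, transcripts per 1000000, divides counts by effective length. The median locus had 12.75 TPM in replicate 2, within a range of 1.49 to 158.65 TPM, and 25.84 TPM in replicate 1, within 4.21 to 256.01 TPM. The mean of these medians was 19.3 ± 9.26 TPM (SD, n = 2). At the same count threshold the 3667 protein-coding genes had a median of 16.16 TPM in replicate 2 and 26.13 TPM in replicate 1. The 38 lincRNA genes had medians of 20.8 TPM (replicate 2) and 37.1 TPM (replicate 1), and the 33 antisense genes 12.7 TPM (replicate 2) and 26.7 TPM (replicate 1). All 117 loci were single-exon models. Their median span was 2912 bases, within 872 to 30942, against 1958.5 bases for the other TEC genes, and their median GC content was 41.6% against 42.3%. At equal level a longer locus collects more counts, so the threshold itself favours longer loci and the difference in span is not a result about them.

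The loci lay mostly inside coding genes. A locus was counted as inside a coding gene when at least 50% of its span lay there, and as beside one when the gap was at most 10000 bases. A place inside a gene on either strand came first, so a locus inside an opposite-strand gene can also lie near a same-strand one. Of the 117 loci, 93 (79.5%) lay inside a protein-coding gene on the same strand, against 47.8% of all TEC genes. A further 14 (11.97%) lay inside a coding gene on the opposite strand, against 12.2% of TEC genes, 5 lay beside one and 5 lay away from any. Of the 93, 88 had no base in an exon of a coding transcript, the other 5 being Gm42793 in Spp1, Gm43323 in Rbm47, Gm49730 in Parp14, Gm42603 in Anxa3 and Gm49599 in Golgb1, and 90 lay within 1 intron of the longest coding transcript. The intron was the first in 37 of the 93 (39.8%), the second in 19 and a later one in 34. Among the other TEC genes placed inside a same-strand coding gene, 28.8% lay in the first intron.

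The coding genes that hold the loci were abundant ones. Their median was 52.0 TPM for the 93 same-strand loci, within 2.88 to 820.5 TPM, against 0.95 TPM for the coding genes around the other same-strand TEC loci. They were shorter, with a median span of 113 kb against 191 kb. The loci lay nearer to the start of the coding gene, at a median of 29.6 kb against 63.1 kb. Many of the other loci lie in genes of low level, and the distance was not scaled by gene length. Among coding genes at the count threshold, the median span was 84.7 kb for the 67 with a chosen same-strand locus. It was 101.9 kb for the 238 whose same-strand TEC locus was not chosen. Among same-strand TEC loci, 0 of 746 passed the threshold where the coding gene had a mean below 1 TPM and 3 of 359 (0.84%) where it had 1 to 10 TPM. The share was 8.24% at 10 to 30 TPM, 31.7% at 30 to 100 TPM and 73.7%, or 28 of 38 loci, at 100 TPM or more. The median of expected counts per kb of locus, averaged over both libraries, followed the same order over these 5 ranges of coding-gene TPM, at 0, 7.31, 35.97, 81.3 and 452.

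Loci on the opposite strand of their coding gene showed the same order, with smaller shares from 10 TPM upward and fewer counts per kb from 1 TPM upward. Their share past the threshold was 0 of 191, 1 of 96, 6.45%, 11.8% and 50.0% (5 of 10) over those ranges, and their median counts per kb were 0, 4.89, 20.0, 56.4 and 157. The strand setting of the libraries is not given in the sources used here, so reads of the coding gene itself and of an opposite-strand transcript could not be told apart for these loci.

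**Figure D1:**
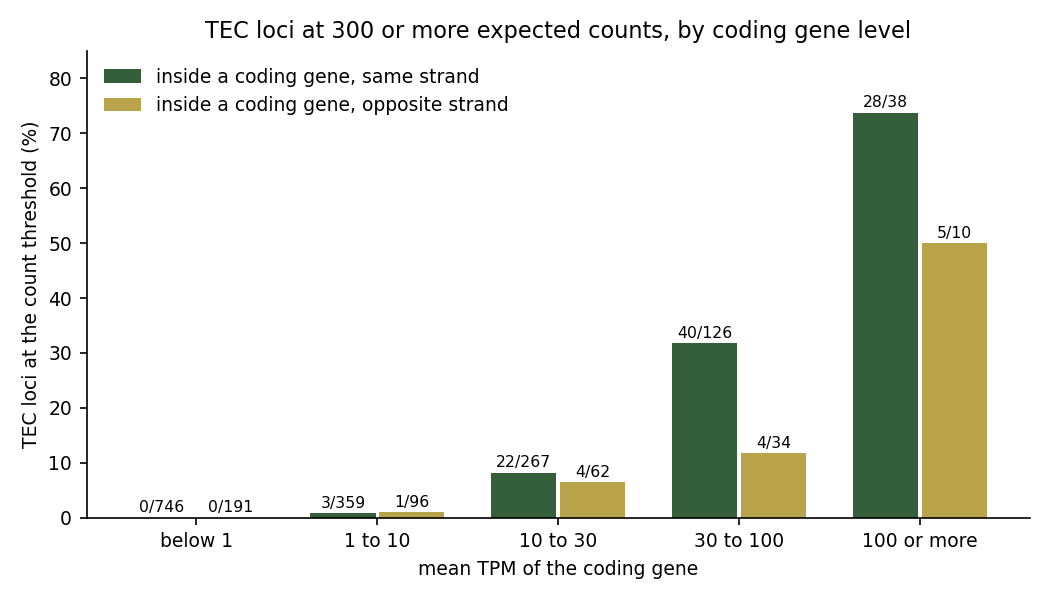
Percent of TEC loci with at least 300 expected counts in both libraries (y axis) by the mean TPM of the coding gene around them (x axis), for loci on the same strand and on the opposite strand; the number chosen and the number of loci stand above each bar. The share goes up with the level of the coding gene on both strands, to 73.7% and 50.0% at 100 TPM or more.

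The locus with the highest TPM was Gm38357 (ENSMUSG00000103313.1, mm10 chr3:51231917-51234380, plus strand), in the first intron of Noct, which encodes nocturnin, a phosphatase of NADP(H) under circadian control. It had 12249 expected counts and 158.65 TPM in replicate 2, and 6454 counts and 256.01 TPM in replicate 1. Noct itself had 198.91 TPM in replicate 2 and 307 TPM in replicate 1. The locus therefore stood at 79.8% of its coding gene in replicate 2 and 83.4% in replicate 1.

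Gm42793 (chr5:104435121-104436372, plus strand) lies at the very start of Spp1, which encodes the secreted matrix protein osteopontin, and 24.7% of its span is in an untranslated exon of Spp1. It had 145.93 TPM in replicate 2 and 237.84 TPM in replicate 1, while Spp1 had 747.15 TPM (replicate 2) and 893.88 TPM (replicate 1). Reads in the shared exon part can be assigned to either gene. The authors' posterior SD of its count was 5.81 on 5270 counts in replicate 2 and 3.50 on 2757 counts in replicate 1.

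The first intron of Dock10 held 3 loci. Gm38062 (chr1:80728809-80730664, minus strand) had 100.51 TPM in replicate 2 and 176.08 TPM in replicate 1. A630081D01Rik (chr1:80747222-80749054) had 85.86 TPM (replicate 2) and 184.61 TPM (replicate 1), and Gm37645, farther from the start, had 21.57 TPM (replicate 2) and 39.52 TPM (replicate 1). Dock10 had 68.11 TPM in replicate 2 and 130.09 TPM in replicate 1, so the 2 loci nearer the start were above it in both libraries and the third was below it in both.

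Gm37084 (chr1:131086252-131092149, minus strand) held the highest expected counts of all the loci, 12852 in replicate 2 and 7673 in replicate 1. It lies in the first intron of Mapkapk2, the kinase MK2 that acts below p38 and stabilises cytokine mRNAs. Its level was 66.37 TPM in replicate 2 and 120.28 TPM in replicate 1, against 128.25 TPM (replicate 2) and 216.34 TPM (replicate 1) for Mapkapk2.

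Gm20236 and Gm37094, the identical copies shown above, lie in the first introns of Slc25a37, the mitochondrial iron importer mitoferrin 1, and of the neighbouring gene model Gm16867. Each was given 8804 expected counts in replicate 2 and 5259.5 in replicate 1. Each had 59.65 TPM (replicate 2) and 108.36 TPM (replicate 1). The authors' posterior SD of the count was above 5% of the count for these 2 loci and for no other of the 117, so the split between the copies is uncertain and their sum, 17608 counts in replicate 2 and 10519 in replicate 1, is what the reads give. Their coding genes differed in level. Slc25a37 had 92.21 TPM in replicate 2 against 78.74 TPM in replicate 1, while Gm16867 had 39.85 TPM in replicate 2 against 4.43 TPM in replicate 1. In the second quantification deposited for these libraries Gm16867 had 27.3 TPM in replicate 2 and 66.7 TPM in replicate 1. The direction of its difference between the libraries thus depends on the quantification.

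Gm36638 (chr13:101749720-101751888, minus strand) lies in the second intron of Pik3r1, the regulatory subunit p85-alpha of PI3-kinase. It had 35.31 TPM in replicate 2 and 86.64 TPM in replicate 1, against 98.7 TPM (replicate 2) and 160.91 TPM (replicate 1) for Pik3r1. Gm43430 (chr3:135650670-135654566, minus strand) lies in intron 6 of Nfkb1, which encodes the p105 precursor of NF-kB p50. It had 38.28 TPM in replicate 2 and 77.27 TPM in replicate 1, against 124.69 TPM (replicate 2) and 185.39 TPM (replicate 1) for Nfkb1. A130071D04Rik, in the second intron of Ptprc, the leukocyte phosphatase CD45, had 22.52 TPM (replicate 2) and 81.07 TPM (replicate 1), and Ptprc had 193.08 TPM (replicate 2) and 384.40 TPM (replicate 1).

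**Figure D2:**
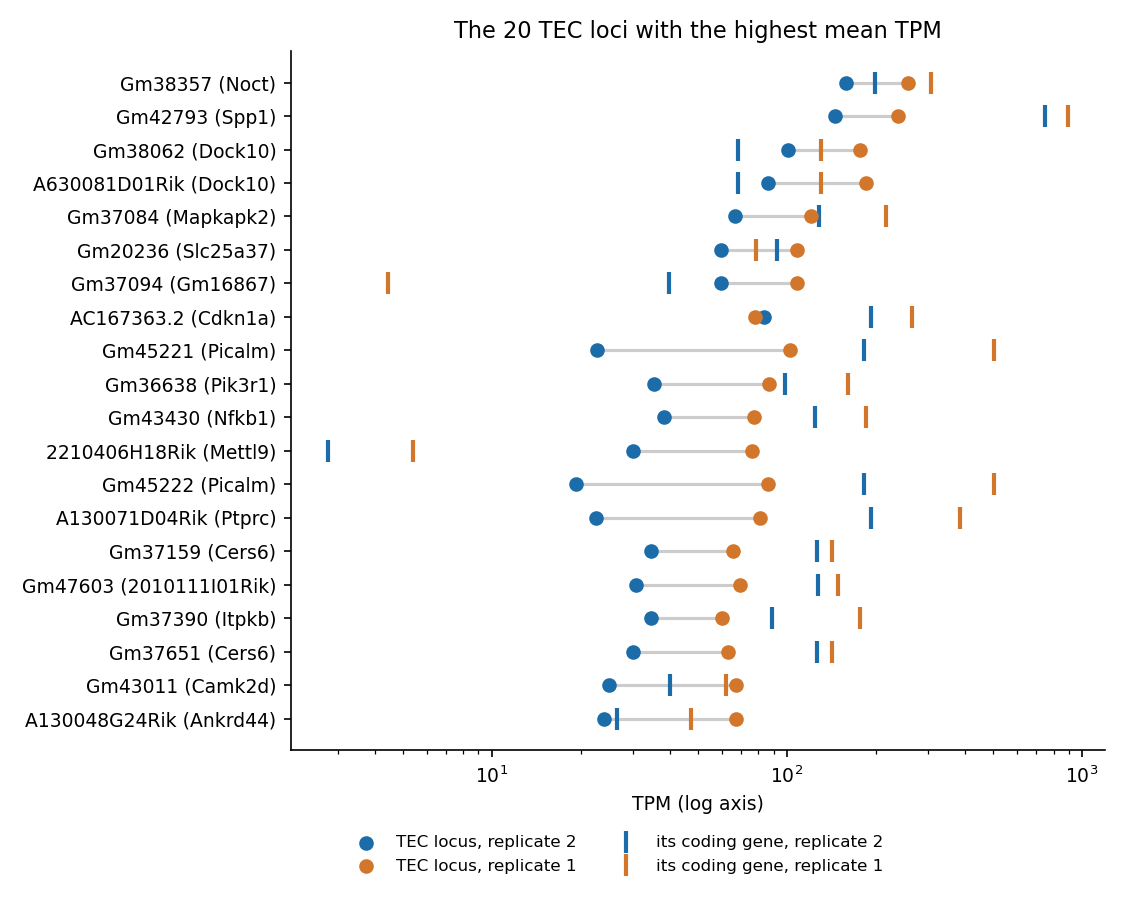
TPM on a log axis for the 20 loci with the highest mean TPM, 1 row each with its coding gene in brackets; dots are the locus and bars its coding gene, in replicate 2 and replicate 1. Most loci sit left of their coding gene in both libraries, and AC167363.2 alone has its replicate 2 dot to the right of its replicate 1 dot.

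Over all 112 loci with a coding gene in or beside which they lie, the locus stood at a median of 28.5% of the coding gene's TPM in replicate 2 and 37.96% in replicate 1. In mean TPM, 11 of 112 were at or above the coding gene, against 84 (4.55%) of the 1848 TEC loci whose coding gene was above 0 TPM. Those 1848 include the chosen loci, which were taken for their high counts. A larger share among the chosen loci thus follows in part from the rule and is not a result about them. The count among the 112 was 9 in replicate 2 and 13 in replicate 1. It was 3 in the second quantification deposited for these libraries, where 2210406H18Rik and Gm47087 were the 2 of these 11 still above their coding gene and Gm37123 in Pik3ca was the third. The denominators differ in kind, since the coding gene's TPM counts its annotated transcripts only. Per kb of the whole coding gene, introns included, 110 of the 112 loci exceeded the coding gene's expected counts. Those counts also come from annotated transcripts only, while the span takes in every intron. This outcome was therefore all but fixed in advance, and the read level of the surrounding introns was not measured.

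Some of the 11 lie in coding genes of low level. 2210406H18Rik, on the opposite strand in intron 4 of the protein-histidine methyltransferase gene Mettl9, had 30.07 TPM in replicate 2 and 76.20 TPM in replicate 1, against 2.78 TPM (replicate 2) and 5.41 TPM (replicate 1) for Mettl9. A coding gene near 2210406H18Rik on its own strand was not looked for, so Mettl9 may not be the gene to set it against. Gm47087, in the first intron of the Notch coactivator gene Maml2, had 15.45 TPM (replicate 2) and 34.82 TPM (replicate 1) against 2.47 TPM (replicate 2) and 3.29 TPM (replicate 1) for Maml2. In the first intron of Etv6, an ETS-family transcriptional repressor, Gm43982 had 17.87 TPM (replicate 2) and 43.26 TPM (replicate 1), and Gm43984 had 13.80 TPM (replicate 2) and 33.40 TPM (replicate 1), against 8.64 TPM (replicate 2) and 11.81 TPM (replicate 1) for Etv6. The others of the 11 are the 2 loci of Dock10, the copy Gm37094, and A130048G24Rik in Ankrd44, Gm36527 in the Polycomb gene Rnf2, Gm37558 in the importin gene Kpna4 and Gm40309 in the ubiquitin-conjugating enzyme gene Ube2k. All but 2210406H18Rik lie on the strand of their coding gene, and all of these 10 lie in its first intron, which holds 39.8% of the 93 same-strand loci.

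Across loci, the mean TPM of locus and coding gene had a Spearman rho of 0.54 and a Pearson r of 0.52 on the log2 scale (n = 112 loci). For the 91 same-strand loci without the identical copies rho was 0.59. The points share 2 libraries, and several share a coding gene, so these are descriptions.

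**Figure D3:**
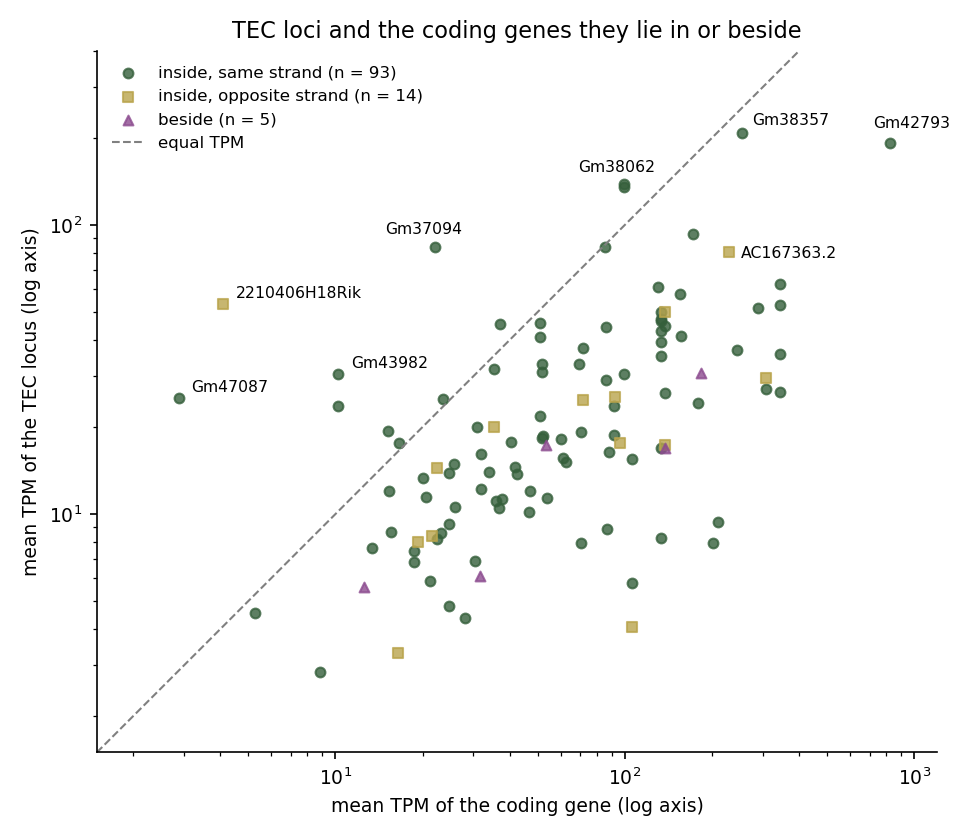
Mean TPM of each of the 112 loci (y axis, log) against that of the coding gene it lies in or beside (x axis, log), by position; the dashed line marks equal TPM. The 11 loci on or above the line include 2210406H18Rik, Gm47087 and Gm43982, in coding genes of low TPM, and Gm38062 in Dock10.

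There were 15 coding genes with 2 or more of the loci, 42 loci in all. Cers6, a ceramide synthase gene, held 5 and Picalm, whose product assembles clathrin coats in endocytosis, held 4. So did 2010111I01Rik, listed in RefSeq as Aopep, an aminopeptidase gene. Genes with 3 were Camk2d, a calmodulin-dependent kinase, Dennd1a, an exchange factor for Rab35, Dock10, Itpkb, a kinase of inositol trisphosphate, and Plxna2, a semaphorin receptor. In the second intron of Itpkb, Gm37033 had the fifth highest mean expected count of all the loci, with 7207 in replicate 2 and 4517 in replicate 1. It had 29.67 TPM in replicate 2 and 56.39 TPM in replicate 1, against 89.14 TPM (replicate 2) and 177.28 TPM (replicate 1) for Itpkb. Genes with 2 loci were Ap3s1, Etv6, Kansl1l, Med13l, Mef2a, Rbm47 and the taurine transporter gene Slc6a6.

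Along these genes the loci differed in level, and 13 genes held at least 2 loci on the gene's own strand. In 11 of the 13 the locus farthest from the start had a lower TPM than the locus nearest to it in both libraries. Only loci past the threshold were compared, and no such count was made for the other TEC loci. In Picalm and Itpkb a locus between the nearest and the farthest was the highest in both libraries. A steady fall with distance is thus not shown. In Cers6 the farthest, Gm38377 at 157 kb, had 7.33 TPM in replicate 2 and 9.27 TPM in replicate 1. The nearest, Gm37159 at 29.9 kb, had 34.71 TPM (replicate 2) and 65.63 TPM (replicate 1), and the 3 loci between them ran from 14.19 to 30.08 TPM in replicate 2. Mef2a, a MADS-box transcription factor gene, was the 1 gene with the opposite order in both libraries, Gm44667 at 101 kb having 11.55 TPM (replicate 2) and 26.87 TPM (replicate 1) and Gm44668 at 1.88 kb having 4.70 TPM (replicate 2) and 11.17 TPM (replicate 1). In Ap3s1, of the AP-3 adaptor, the libraries differed in order. The highest locus of a gene exceeded its lowest by a median of 1.79-fold in replicate 2 and 2.25-fold in replicate 1.

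**Figure D4:**
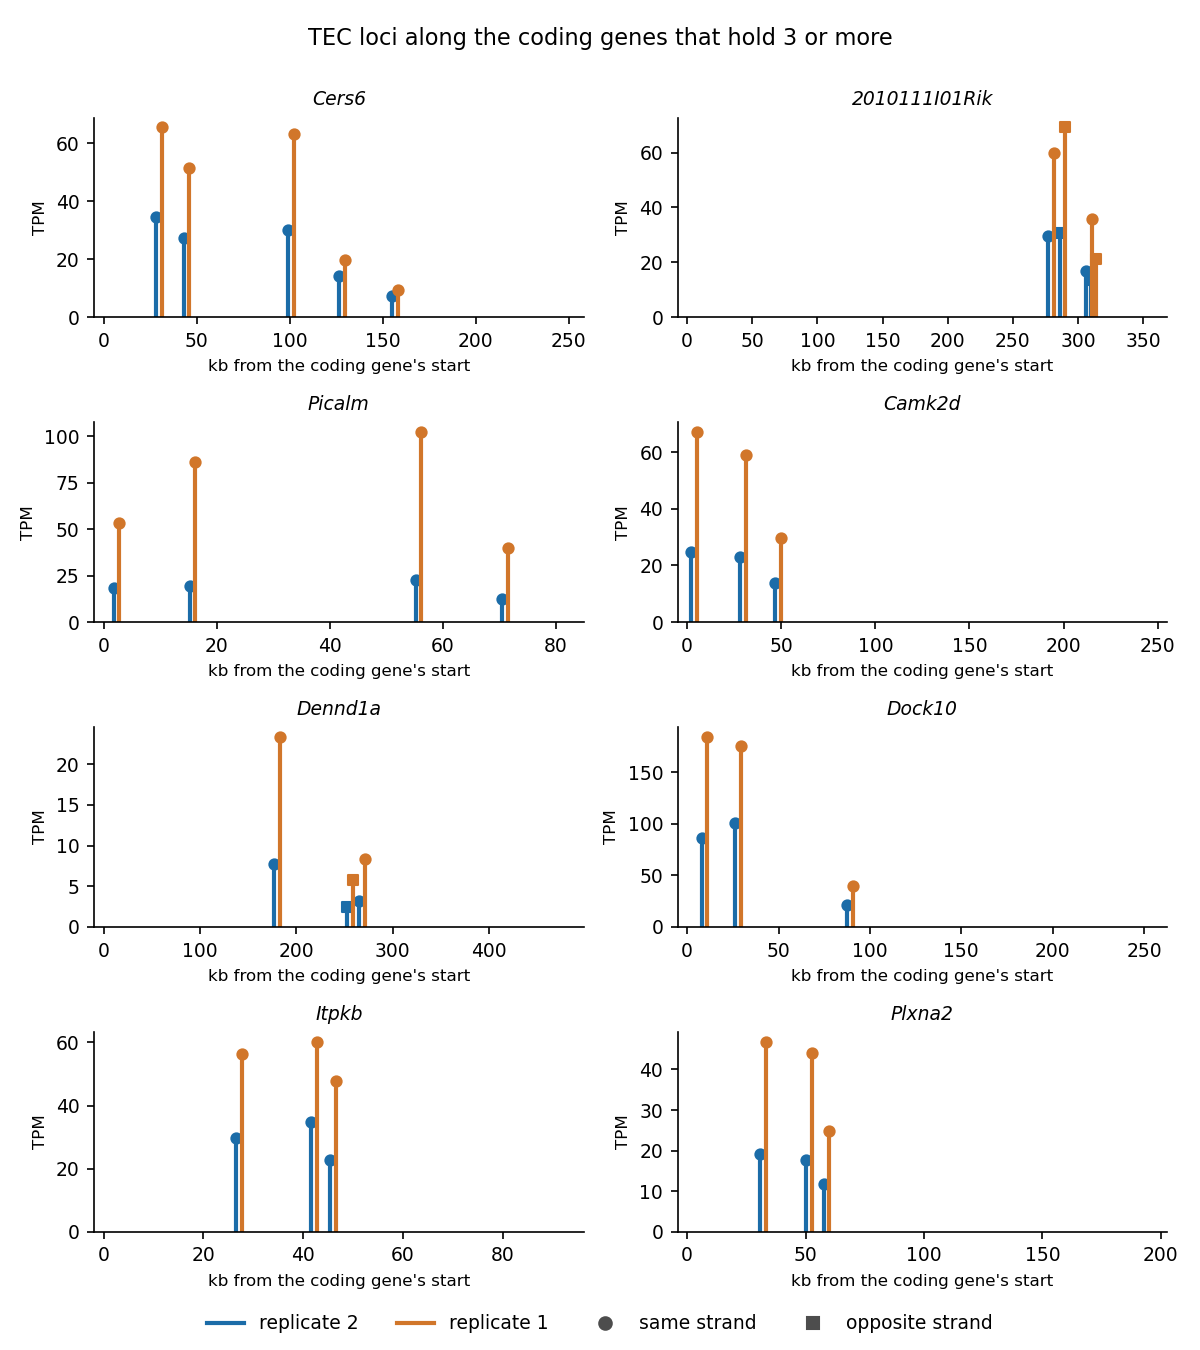
TPM of each locus (y axis) against its distance in kb from the start of the coding gene (x axis, to the gene's full length), for the 8 genes with 3 or more loci, with replicate 2 and replicate 1 drawn side by side and opposite-strand loci as squares. Among same-strand loci the one farthest from the start is lower than the nearest in both libraries in all 8 genes, though in Picalm and Itpkb a locus between them is the highest.

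The 14 opposite-strand loci had a median of 14.2 TPM in replicate 2 and 23.5 TPM in replicate 1. AC167363.2 (chr17:29093416-29094461, minus strand) lies across alternative first exons of Cdkn1a, the CDK inhibitor p21, and 26.1% of its span is in an untranslated exon on the other strand. It had 2434.74 counts and 83.58 TPM in replicate 2, and 720 counts and 77.61 TPM in replicate 1. Cdkn1a had 193.01 TPM in replicate 2 and 264.26 TPM in replicate 1. AC167363.2 was the only 1 of the 117 loci with a higher TPM in replicate 2.

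Gm47603, opposite 2010111I01Rik, had 30.86 TPM in replicate 2 and 69.30 TPM in replicate 1, near the same-strand locus Gm47586 of that gene, at 29.56 TPM (replicate 2) and 59.97 TPM (replicate 1). The longest of the loci, 9330162G02Rik with 30942 bases, runs opposite to the start of the ubiquitin ligase gene Ube3a. It had 1900 expected counts in replicate 2 and 1664 in replicate 1. Per length it was low, at 1.82 TPM (replicate 2) and 4.82 TPM (replicate 1), since the threshold is one of counts. Gm38091, opposite the folate enzyme gene Mthfs, had 16.01 TPM in replicate 2 and 34.96 TPM in replicate 1.

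Of the 5 loci beside a coding gene, 3 follow it on the same strand. Gm44250 lies 365 bases past the lactonase gene Pon3 and had 4.14 TPM in replicate 2 and 7.04 TPM in replicate 1, against 10.29 TPM (replicate 2) and 14.76 TPM (replicate 1) for Pon3. Gm37226 lies 2415 bases past Mthfsl and had 10.83 TPM (replicate 2) and 23.16 TPM (replicate 1), and Gm42548 lies 2913 bases past Zfp800 and had 3.68 TPM (replicate 2) and 8.53 TPM (replicate 1). Each of the 5 was below its coding gene in both libraries. Gm37560 (chr9:88731998-88732997, plus strand) starts 83 bases before Bcl2a1d, an anti-apoptotic BCL2-family gene, and runs away from it on the other strand. It had 24.88 TPM in replicate 2 and 36.42 TPM in replicate 1, against 146.75 TPM (replicate 2) and 220.76 TPM (replicate 1) for Bcl2a1d. It also lies inside the span of the antisense gene Gm10634, on the strand of that gene and with no base in an exon of it, which had 32.7 TPM (replicate 2) and 59.13 TPM (replicate 1). Gm37352 lies 7628 bases past the end of Zswim4 on the other strand and had 15.60 TPM in replicate 2 and 19.02 TPM in replicate 1.

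Of the 5 loci away from coding genes, 4 lay inside an annotated noncoding gene, which was looked up after their values were seen. 5330406M23Rik lies inside the span of the lincRNA gene Lncpint, Gm37472 and Gm37420 lie inside Dleu2, and Gm43197 lies inside Gm20559, each on the same strand and with no base in an exon of it. All 4 stood below that noncoding gene in both libraries. 5330406M23Rik had 26.27 TPM in replicate 2 and 52.54 TPM in replicate 1, against 218.13 TPM (replicate 2) and 382.77 TPM (replicate 1) for Lncpint. Gm37472 had 14.74 TPM (replicate 2) and 29.22 TPM (replicate 1) and Gm37420 had 12.12 TPM (replicate 2) and 28.97 TPM (replicate 1), against 91.27 TPM (replicate 2) and 140.26 TPM (replicate 1) for Dleu2. Gm43197 had 18.89 TPM in replicate 2 and 30.06 TPM in replicate 1, against 108.58 TPM (replicate 2) and 305.26 TPM (replicate 1) for Gm20559. Gm42549 lies in no such span and had 3.07 TPM (replicate 2) and 6.14 TPM (replicate 1). Over all positions 5 of 117 loci lay in a same-strand noncoding gene (4.27%), against 5.04% of the other TEC genes.

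Several of these loci lie upstream of microRNA genes, a position also looked up after the values were seen. An annotated microRNA gene on the same strand started within 50000 bases past the end of 6 of the 117 loci (5.13%), against 73 of 3096 other TEC genes (2.36%). Primary microRNA transcripts are nuclear RNAs that are cut there into hairpins. Whether reads at these loci belong to such precursors was not tested. 5330406M23Rik ends 45733 bases before Mir29b-1 and 46079 before Mir29a. Gm37420 ends 35109 bases before Mir15a and 35247 before Mir16-1, with Gm37472 farther upstream on the same strand. Gm37352 ends 5468 bases before Mir23a, 5622 before Mir27a and 5765 before Mir24-2. Gm47585, in 2010111I01Rik, ends 24572 bases before Mir23b, 24800 before Mir27b and 25296 before Mir24-1. Gm42994, in Fnbp1l, ends 32842 bases before Mir7657.

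The mature microRNAs of these clusters are shown because members of the same cluster, or of the clusters on chromosomes 8 and 13, share a seed, given in capitals (bases 2 to 8). The sequences are from RefSeq on GRCm38.p6, and mature microRNAs were not measured in these tables.
mmu-miR-29a-3p: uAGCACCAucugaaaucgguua
mmu-miR-29b-3p: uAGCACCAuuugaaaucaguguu
mmu-miR-15a-5p: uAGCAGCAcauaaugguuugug
mmu-miR-16-5p: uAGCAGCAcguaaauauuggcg
mmu-miR-27a-3p: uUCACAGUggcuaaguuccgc
mmu-miR-27b-3p: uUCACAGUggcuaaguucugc
mmu-miR-24-3p: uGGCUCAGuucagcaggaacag
The first pair comes from the cluster after 5330406M23Rik, the next pair from the cluster in Dleu2, and the third pair from the clusters after Gm37352 and Gm47585. The last is made from Mir24-1 and Mir24-2, in both of those clusters.

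The coding genes of the loci were compared with a list of 137 genes of the early lipid A response, drawn up with earlier results of these data known. Of the 137, 8 had a TEC locus in or beside them, and 3 of these had one of the 117 loci. They are Nfkb1 with Gm43430, Bcl2a1d with Gm37560, and Zswim4 with Gm37352. Among coding genes at the count threshold, 79 of 3665 (2.16%) had one of the loci, and 79 of the 459 with any TEC locus (17.2%). For early response genes at the threshold this was 3 of the 7 with a TEC locus. Such a locus was annotated for 5.93% of the 118 early response genes at the threshold, against 12.5% of all coding genes there.

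The transcript tables also assign part of a coding gene's TPM to isoforms annotated as retained intron, models that keep an intron of the gene. In the 67 coding genes at the threshold that hold a same-strand locus, 57 had such an isoform, with a median share of 44.03% in replicate 2 and 44.3% in replicate 1. Coding genes at the threshold whose same-strand TEC locus was not chosen had a median of 26.2% (replicate 2) and 23.8% (replicate 1), with such an isoform in 212 of 238. All coding genes at the threshold had 29.2% (replicate 2) and 26.6% (replicate 1), with 2568 of 3667. The first set was also higher in TPM, with a median of 35.9 TPM in replicate 2 and 62.0 TPM in replicate 1, against 11.8 TPM (replicate 2) and 20.7 TPM (replicate 1) for the second set. The part of level in this difference was not tested.

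The 2 libraries ranked the loci alike, with a Pearson r of 0.96 on log2 TPM and a Spearman rho of 0.96 (n = 117 loci). In TPM 116 of 117 loci were lower in replicate 2, and so were genes in general. The median log2 ratio, replicate 2 over replicate 1, was -1.11 for the loci and -0.75 for all 3950 genes at the threshold. The difference was -0.36 on the log2 scale, and 101 of the 117 loci lay below the median gene. With counts scaled by TMM the medians were -0.37 for the loci and -0.06 for all genes, a difference of -0.32. The medians relative to all genes were -0.42 for same-strand loci, -0.35 for opposite-strand loci, -0.01 for loci beside a coding gene and -0.25 for those away from any. The 5 sense intronic genes at the threshold, also annotated within introns, stood at -0.67, and the lincRNA genes at -0.10.

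The same direction was seen within genes. Of the 93 same-strand loci, 86 had a lower ratio than the coding gene around them, with medians of -1.17 for the loci and -0.78 for the coding genes. A lower ratio was found in 83.3% of all 216 same-strand TEC loci with at least 100 counts in both libraries. Among the 123 of these that were not chosen it was 94, or 76.4%. The median difference from the coding gene's log2 ratio was -0.40 for the 93 chosen loci and -0.30 for these 123. Both sets were filtered on the same counts that give the ratio, so the part of that filter in the direction was not tested. Across the 91 same-strand loci without the identical copies, the ratios of locus and coding gene had a Spearman rho of 0.57. With 2 libraries that differ in RNA input and depth, a difference of input, depth or culture cannot be told apart.

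**Figure D5:**
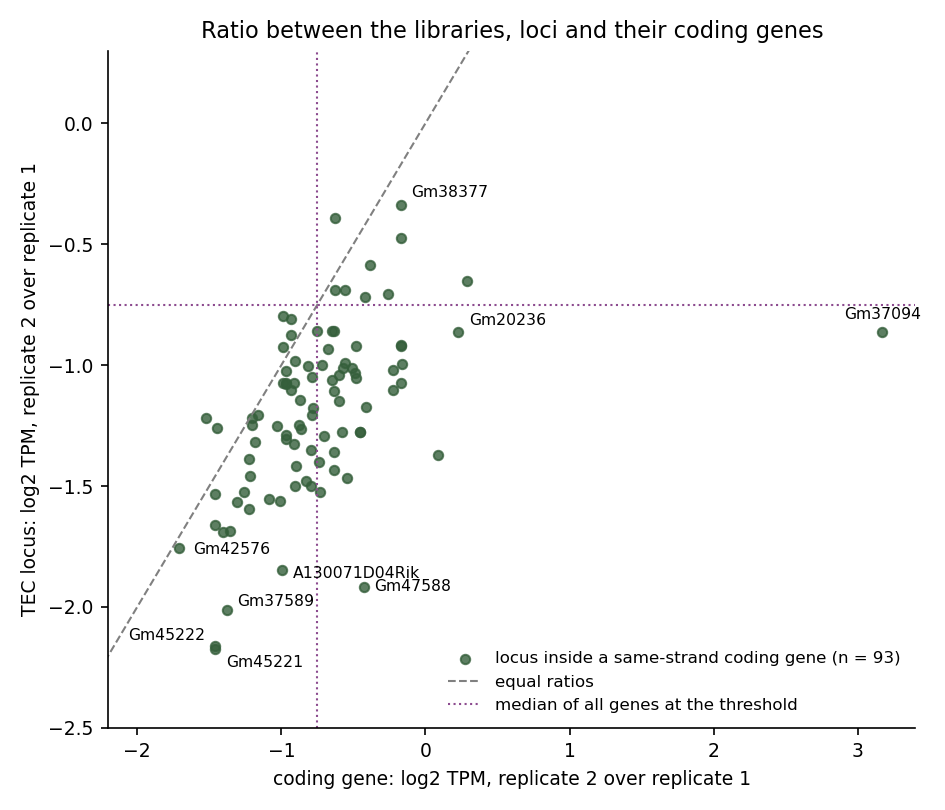
The log2 TPM ratio of replicate 2 over replicate 1 for each of the 93 same-strand loci (y axis) against that of its coding gene (x axis); the dashed line marks equal ratios and the dotted lines the median of all genes at the threshold, -0.75. In 86 of 93 cases the point lies below the dashed line, and Gm37094 lies far to the right, as its coding gene Gm16867 had 39.85 TPM in replicate 2 and 4.43 TPM in replicate 1.

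Of the 117 loci, 6 (5.13%) lay more than 2-fold from the median ratio of all genes, all 6 lower in replicate 2. Over all genes at the threshold the share was 2.2%, 1.01% lower and 1.19% higher in replicate 2. In either direction it was 5 of 38 lincRNA genes (13.2%) and 2 of 33 antisense genes (6.06%). It was 0 of 22 genes of the processed transcript class and 0 of 5 sense intronic genes. The share is thus not particular to the TEC loci, whose median ratio already lay at -0.36 from that of all genes. Among the 117 loci, Gm45221 and Gm45222 had the lowest ratios, both in Picalm. Gm45221 (chr7:90185927-90188198, plus strand, intron 13) had 22.69 TPM (replicate 2) and 102.29 TPM (replicate 1), and Gm45222, in the first intron, had 19.25 TPM (replicate 2) and 86.13 TPM (replicate 1). Picalm itself had 182.86 TPM in replicate 2 and 502.31 TPM in replicate 1. The other Picalm loci were Gm45223, at 18.43 TPM (replicate 2) and 53.26 TPM (replicate 1), and Gm45220, at 12.66 TPM (replicate 2) and 40.02 TPM (replicate 1), so all 4 were lower in replicate 2.

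The remaining 4 of the 6 were A130071D04Rik in Ptprc, described above, Gm37589 in the splicing regulator gene Mbnl1, Gm47588 in the Fanconi anaemia gene Fancc and Gm42576 in Chic2. Gm37589 had 3.16 TPM (replicate 2) and 12.74 TPM (replicate 1), and Mbnl1 had 111.56 TPM (replicate 2) and 290.41 TPM (replicate 1). Gm47588 had 2.47 TPM in replicate 2 and 9.32 TPM in replicate 1, whereas Fancc had 18.10 TPM (replicate 2) and 24.34 TPM (replicate 1). Gm42576 had 5.48 TPM (replicate 2) and 18.51 TPM (replicate 1), near the ratio of Chic2 at 7.16 TPM (replicate 2) and 23.46 TPM (replicate 1). At the other end, the highest ratios belonged to AC167363.2 at 0.11, Gm37352 at -0.29 and Gm38377 in Cers6 at -0.34 on the log2 scale.

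In the expected counts, most of the loci had no reads split with another gene. Expected counts were whole numbers, within 1e-06, in both libraries for 102 of the 117 loci, against 2647 of 3833 other genes at the threshold (69.1%). The loci with fractional counts include Gm42793, AC167363.2 and the identical copies. In the second quantification, made from the reads, every one of the 117 loci had more estimated counts, with a median ratio of 1.24 in replicate 2 and 1.73 in replicate 1. The ratio ran from 1.10 to 2.65 in replicate 2 and from 1.46 to 4.77 in replicate 1. Gm37123 in Pik3ca had the highest in both, so the counts of some loci depend on the quantification. The totals of the 2 quantifications differ by 1.41-fold in replicate 2 and 1.90-fold in replicate 1 in the same direction. In TPM the second quantification gave lower values, with a median of 3.32 TPM (replicate 2) and 16.9 TPM (replicate 1) over the loci, and it was the lower one for all 117 loci in replicate 2 and for 114 in replicate 1.

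The threshold falls inside a continuous range of counts. Just inside were Gm47588, with 307 counts in replicate 2 and 380 in replicate 1, Gm42587 in Alpk1, with 343 (replicate 2) and 308 (replicate 1), and C230096K16Rik in Klf3, with 595 (replicate 2) and 311 (replicate 1). Just outside were Gm43785, opposite Med13l, with 372 (replicate 2) and 299 (replicate 1), Gm42515 in Camk2d, with 298 (replicate 2) and 314 (replicate 1), and Gm37488 in Mbnl1, with 297 (replicate 2) and 436 (replicate 1). A further 43 TEC genes reached 300 counts in replicate 2 only and 3 in replicate 1 only, replicate 2 being the deeper library.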

How the data were processed

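Per the file headers, the deposited tables per gene and per transcript give TPM and expected counts under the column names of RSEM. Each library also has a deposited transcript table under those of kallisto, with TPM and estimated counts. The tables under the RSEM names also give the authors' posterior mean and SD of the count, a signal on the count scale, and the percent of a gene's TPM in each isoform. The authors' readme files name mm10 and annotation M21. For program versions, trimming and strand setting the sources used here give nothing. TPM divides by effective length, so very short RNAs with large TPM lower every other value.

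Locus classes came from the eighth field of the transcript names, and positions and sequences from GENCODE M21, in which all 55536 gene rows were found. The 26345 other rows (spike-ins and numeric identifiers) were left out, and made up 0.0968% of all expected counts of replicate 2 and 0.504% of those of replicate 1. Columns of other series numbered 0. With 1 group of 2 libraries no test was run. TMM scaling used edgeR 4.0.16 and median-of-ratios scaling DESeq2 1.42.0, on expected counts rounded to whole numbers. Python 3.11.15 with pandas 2.3.3 did the rest, and the placing and ratio steps were tested on simulated data. Members and gene lists were chosen with earlier results of these data known. The loci named were the 12 highest in mean TPM, the 8 highest in mean expected count, the 3 most extreme ratios in each direction, the 3 with most counts in each position class, 3 on each side of the threshold, those in early response genes, and every coding gene with 2 or more. Loci named beyond this rule (within those genes, across coding exons, at or above the coding gene, beside or away from one, past 2-fold, and near microRNA or in noncoding genes) were chosen after their values were seen.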

Additional observations from a re-analysis of the deposited data

How the results depend on the processing

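No paired analysis was possible because the design has 1 group and no contrast. With a threshold of 100 expected counts there were 288 loci, with 1000 there were 33, and with the other quantification 321; all 117 are among the 288 and the 321. The number was 120 to 160 when either library was left out. Loci inside a same-strand coding gene numbered 28 at a threshold of 1000 and 95 to 120 with either library left out, and 93 whether an overlap of 1 base or the whole span was asked for. Loci at or above their coding gene numbered 3 in the other quantification and 12 to 13 with either library left out. Per kb of the whole gene span they numbered 110, an outcome all but fixed in advance for the reason given above. The median TPM, 18.8 over both libraries, was 9.996 in the other quantification, 83.2 when TPM was rescaled over nuclear protein-coding genes, 6.73 at a threshold of 100, 44.8 at 1000 and 9.30 to 25.4 with either library left out. The share of expected counts, 1.16% over both, was 1.07% to 1.43% with either library left out. The median log2 ratio was -2.501 in the other quantification, where all genes had -2.197, -0.37 with TMM and -0.38 with DESeq2 size factors. Loci past 1.5-fold of the median ratio numbered 31, against 15.1% of all genes. Loci with a poly(A) signal numbered 6 at a threshold of 1000. Leaving out or merging the identical copies, or leaving out the loci in Picalm, was chosen after seeing the data and moved no count beyond 1.5 times. The search for a run of A after each locus was not run, as it needs genome sequence not used here. Depth in replicate 1 sets the threshold for most loci, and the precision of every value rests on 2 libraries.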
